A study of Mus musculus with 6 samples.

Results

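The small leucine-rich proteoglycan (SLRP) genes were followed in mouse embryonic fibroblasts with and without introduced p27. The 9 genes were named by symbol, with earlier results of these data known, as Dcn, Lum, Bgn, Fmod, Ogn, Aspn, Omd, Prelp and Podn. All 9 were found among the 24062 symbols of the count table, and all 9 passed the filter on low counts that kept 13990 genes. RNA had been sequenced in 6 libraries of embryo-derived fibroblasts (MEFs, primary connective tissue cells) of the C57BL/6 strain. Of these, 3 were labelled EV control and 3 p27OE, cells given p27 by lentivirus, and every title carried day 10. All 3 control titles and 0 of the p27OE titles also carry the mark dataset 11, whose meaning the labels do not give and which cannot be told apart from the group. The protein p27, encoded by Cdkn1b, inhibits cyclin-dependent kinases. The labels do not expand EV, do not say whether the control cells received a virus, and name neither the promoter of the p27 construct nor the number of embryos behind a library. The p27OE titles and the treatment text call the cells senescent, and the series design text calls them non-senescent, so the group names alone were used here.

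SLRPs are secreted core proteins built of leucine-rich repeats, many of which carry chondroitin, dermatan or keratan sulfate chains. They bind collagen and set the width and spacing of its fibrils, and several of them also bind growth factors such as TGF-beta or cell surface receptors. Fibroblasts are a main source of these proteins in connective tissue. By sequence the members fall into a biglycan and decorin class (Bgn, Dcn, Aspn), a fibromodulin and lumican class (Fmod, Lum, Prelp, Omd), and the classes of osteoglycin (Ogn) and podocan (Podn).

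The genes lie in clusters (GENCODE M21, GRCm38). Dcn (97479609 to 97518143) and Lum (97565128 to 97572703) are neighbours on chromosome 10, 46984 bases apart. Prelp (133910304 to 133921414, minus strand) and Fmod (134037254 to 134048277) lie on chromosome 1, 115839 bases apart. Aspn (49544443 to 49567565), Omd (49582462 to 49592822) and Ogn (49608046 to 49624501) follow each other on chromosome 13, inside the span of Cenpp on the opposite strand. Their exons share 7 bases (Aspn) or 0 bases (Omd and Ogn) with it. Bgn (73483602 to 73495933) is on chromosome X and Podn (108014791 to 108096445, minus strand) on chromosome 4. Prelp shares 350 exon bases, 9.7% of its exons, with the antisense gene Gm15851, and reads of the pair cannot be told apart without a stated strand setting.

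RefSeq promoters (GRCm38.p6, 250 bases before to 50 after a start) were found for 7 members. The ones printed belong to Prelp, Fmod and Ogn, the members with the largest differences between groups, and to Bgn, the member with the highest level. Capitals mark matches, on either strand and with overlaps counted, to short motifs named for the factors known to bind them. The TATA box was searched as TATAAA, and the GC box of Sp proteins was searched as GGGCGG. The motif of the zinc finger protein MAZ was searched as GGGAGGG, and that of AP-1, the Fos and Jun pair, as TGANTCA. For TEAD proteins, partners of YAP, the letters were GGAATG, for RUNX proteins they were TGTGGT, and for the cell cycle factor E2F they were TTTNGCGC. The motifs were chosen with the sequences in view.
Prelp, chr1:133921352-133921651, minus strand: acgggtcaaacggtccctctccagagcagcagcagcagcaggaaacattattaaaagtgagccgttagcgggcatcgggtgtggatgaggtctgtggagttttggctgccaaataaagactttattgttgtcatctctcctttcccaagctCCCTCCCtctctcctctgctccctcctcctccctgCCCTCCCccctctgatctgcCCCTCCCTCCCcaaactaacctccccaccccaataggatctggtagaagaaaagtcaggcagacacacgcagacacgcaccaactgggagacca
Fmod, chr1:134037004-134037303, plus strand: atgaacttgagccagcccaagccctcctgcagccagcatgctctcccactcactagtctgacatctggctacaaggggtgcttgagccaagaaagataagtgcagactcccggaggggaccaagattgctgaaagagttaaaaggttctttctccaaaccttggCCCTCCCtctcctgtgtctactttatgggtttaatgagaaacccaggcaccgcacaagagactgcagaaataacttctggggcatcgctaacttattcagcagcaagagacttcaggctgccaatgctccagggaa
Ogn, chr13:49607765-49608064, plus strand: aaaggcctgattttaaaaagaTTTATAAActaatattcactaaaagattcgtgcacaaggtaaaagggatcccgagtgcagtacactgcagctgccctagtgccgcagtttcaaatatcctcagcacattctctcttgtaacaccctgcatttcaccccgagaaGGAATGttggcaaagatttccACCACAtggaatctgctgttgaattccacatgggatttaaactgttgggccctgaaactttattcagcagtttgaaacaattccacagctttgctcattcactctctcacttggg
Bgn, chrX:73483351-73483650, plus strand: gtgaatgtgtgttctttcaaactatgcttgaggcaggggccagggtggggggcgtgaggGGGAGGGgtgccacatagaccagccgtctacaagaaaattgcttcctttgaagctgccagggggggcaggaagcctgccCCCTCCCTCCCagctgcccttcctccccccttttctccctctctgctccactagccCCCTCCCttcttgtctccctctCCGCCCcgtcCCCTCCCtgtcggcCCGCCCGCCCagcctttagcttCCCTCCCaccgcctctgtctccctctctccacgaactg

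The Prelp promoter held 4 MAZ matches, that of Fmod 1 and that of Bgn 6, and 22% of all 32851 promoters of this length held at least 1. Bgn also held 3 GC box matches, a motif present in 35.7% of promoters. Ogn held 2 TATA box matches far from the start, at 229 and 227 bases before it and overlapping each other, and 1 match each for TEAD and RUNX. Those letters occurred in 13.6%, 14.7% and 16.8% of promoters. The printed promoters held no AP-1 or E2F match, found in 7.8% and 1.4% of promoters. GC content was 55.3% for Prelp, 51% for Fmod, 42.3% for Ogn and 63.7% for Bgn, against a median of 52.7%. These matches describe the letters only.

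Library totals ran from 39183624 to 61219345 counts. Cdkn1b was at 31.5 to 43.9 CPM (read counts scaled to library size, with TMM factors that even out library composition) in the control libraries and at 167 to 337 CPM in p27OE. The libraries did not differ by group alone. Summed CPM of 4 Y-linked genes was 0.13, 126.07 and 124.43 in the control libraries 1, 2 and 3, while p27OE 1, 2 and 3 were at 1.95, 57.15 and 137.26. EV control 1 and p27OE 1 had nearly none, and p27OE 2 lay between them and the other 3. Xist, the RNA that silences an X chromosome in female cells, ran the other way, at 406.83, 5.67 and 0.68 CPM in controls 1, 2 and 3 and at 330.49, 163.61 and 0.46 CPM in the p27OE libraries. For this reason results are given for all 6 libraries and for libraries of like Y-linked level. The fibroblast marker list, with 9 of 9 genes tested and 0 called, summed to 35584 to 52094 CPM in controls and 32147 to 39436 CPM in p27OE. Macrophage markers, with 8 of 10 tested, summed to 80.5 CPM in EV control 1 and to 14.8 to 32.3 CPM in the other libraries. Tendon markers, with 4 of 5 tested, summed to 61.7 to 90.05 CPM in controls and 78.8 to 82.4 CPM in p27OE. Cartilage and bone markers, with 7 of 10 tested, summed to 369 to 573 CPM in controls and 481 to 885 CPM in p27OE, with Bglap at 0 counts in all libraries. Smooth muscle and pericyte markers, with 8 of 8 tested and 1 called (Cspg4), summed to 6029 to 10944 CPM in controls and 7302 to 15251 CPM in p27OE. Endothelial markers, with 4 of 7 tested, 0 called and Cldn5 at 0, summed to 4.48 to 5.93 CPM in controls and 6.42 to 8.14 CPM in p27OE. These sums did not overlap between groups, and neither did the values of 33.3% of all single genes tested. Sums of the epithelial, skeletal muscle, adipocyte and neural lists overlapped, with 0 genes called and Ckm of muscle at 0. The part of these markers in the SLRP values was not tested.

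In the comparison of the groups alone, none of the 9 SLRP genes passed (edgeR, adjusted p under 0.05), against 365 of all 13990 genes, or 2.61%. A mean change above 0 was found for 7 of 9 members and for 7244 of all genes tested. With 1 library left out, the count of members above 0 ran from 4 to 8. Prelp had the largest change, at a log2 value of 2.28 ± 0.98 (SE), and Bgn, the most abundant, one of −0.12 ± 0.10. The median log2 change was 0.40 over the members and 0.01 over all genes tested. At an unadjusted p under 0.05 the count was 0 of 9 with edgeR, against 3634 of all 13990 genes. DESeq2 and limma-voom each called 0 members, where they called 16.6% and 2.99% of all genes. At an unadjusted p under 0.05, DESeq2 had 2 members and 3905 of all genes, and limma-voom 1 member and 3708 of all genes. The groups overlapped for all 9 members, while they did not overlap for 33.3% of all genes tested. In these bulk samples, fewer cells of a type and less RNA per cell cannot be told apart.

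Within the groups the members shared an order of libraries. All 9 were highest among the controls in EV control 1. In p27OE, 8 of 9 were highest in p27OE 1 and lowest in p27OE 3, and Bgn was the exception. Both orders together were met by 8 of 9 members and by 22.2% of all genes tested. Of the 14 fibrillar and fibril-associated collagen genes described below, all but Col2a1, Col5a2 and Col12a1 also met both orders. The order was thus not particular to the SLRP genes. The same 2 libraries, EV control 1 and p27OE 1, had the low Y-linked level, and whether that level, the replicate number or something else sets them apart was not tested. Cdkn1b also rose with the Y-linked level within p27OE, at 166.6, 232.3 and 336.9 CPM in p27OE 1, 2 and 3. The part of the Cdkn1b level in the order of the SLRP genes was not tested. The highest library was 9.2-fold above the lowest for Dcn in controls and 20.4-fold for Lum in p27OE, the widest spreads, and 1.06-fold and 1.19-fold for Bgn, the narrowest.

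**Figure D1:**
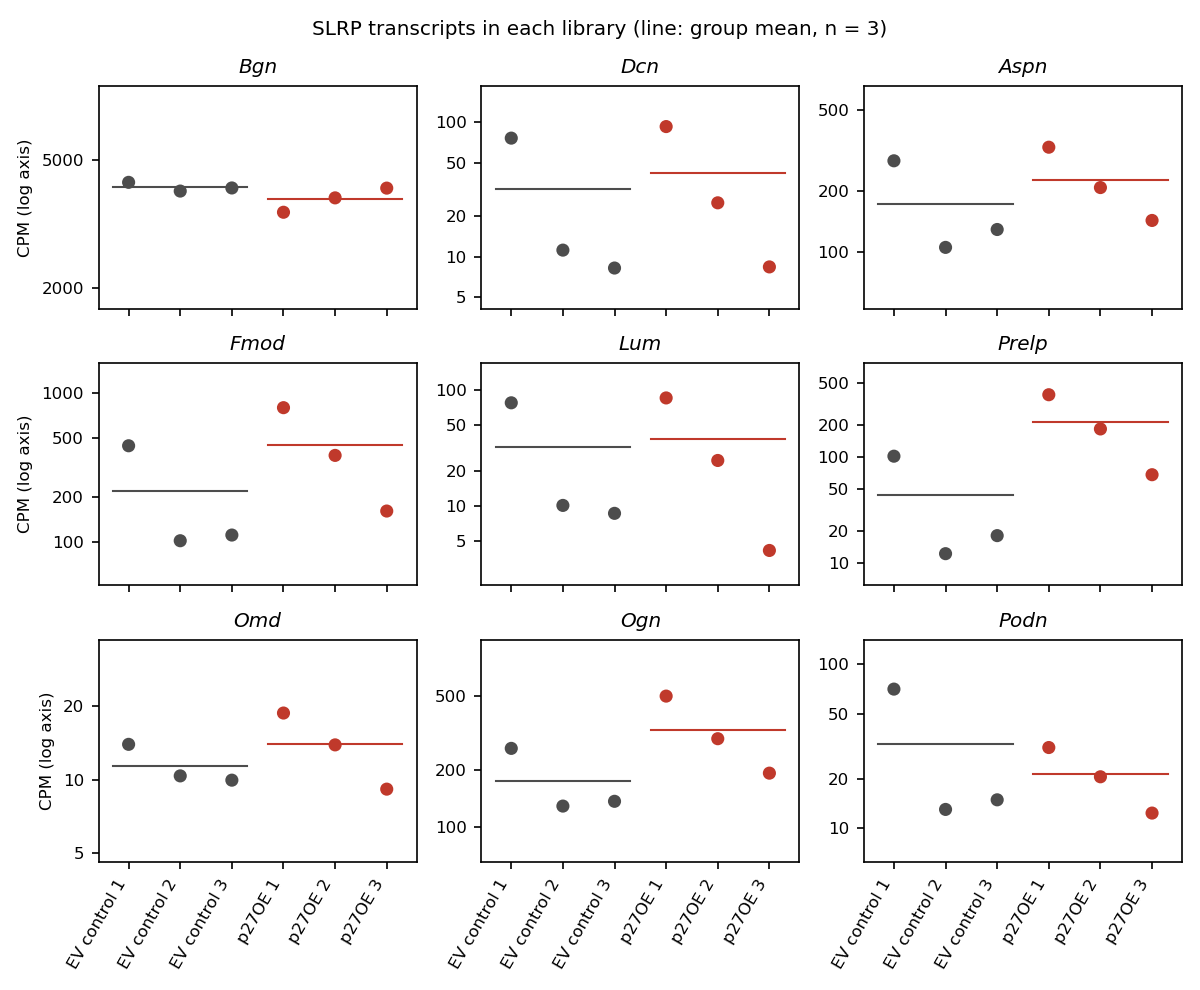
CPM on a log axis for each SLRP gene in each library, with control libraries in grey, p27OE libraries in red and the group mean of 3 libraries as a line. EV control 1 is the highest control in every panel, and in all panels but that of Bgn p27OE 1 is the highest and p27OE 3 the lowest of its group.

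Prelp encodes a basic core protein that binds collagen and, through its charged end, heparan sulfate, and it anchors basement membranes to the connective tissue below. It was at 102, 12.2 and 18.1 CPM in EV control 1, 2 and 3, and it was at 389.6, 185 and 68.3 CPM in p27OE 1, 2 and 3. EV control 1 lay above p27OE 3, and apart from that pair every p27OE library lay above every control library. Means were 44.2 ± 50.3 and 214 ± 163 CPM (SD, n = 3 each), with an edgeR adjusted p of 0.202. Between libraries of low Y-linked level, p27OE 1 was 3.81-fold above EV control 1. Between those of high level, p27OE 3 was 4.50-fold above the mean of EV control 2 and 3. Each of these comparisons rests on 1 p27OE library.

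A second edgeR model held the Y-linked level beside the group and is called the Y-adjusted model. In it Prelp passed with a log2 change of 2.2 ± 0.14 (SE, a 4.58-fold difference; edgeR adjusted p = 0.000336). Its change stayed between 2.04 and 2.37 when any 1 library was left out of that model, with edgeR adjusted p no higher than 0.0097. Without both libraries numbered 1 and with no such term, Prelp was at 3.05 ± 0.52 (edgeR adjusted p = 0.0293). Without EV control 1 alone it was at 3.81 (edgeR adjusted p = 0.042), the only member called there, where 12.9% of all genes were. Without any one of the other libraries it did not pass, with a lowest value of 1.51. Leaving out EV control 1, alone or with p27OE 1, did not balance the Y-linked level. The controls left were at 126.07 and 124.43 CPM of Y-linked genes. The p27OE libraries were at 57.15 and 137.26 CPM, and also at 1.95 CPM where p27OE 1 was kept. Group and Y-linked level cannot be fully told apart in those fits.

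Fmod encodes fibromodulin, a keratan sulfate proteoglycan that binds type I collagen and is abundant in tendon. It was at 445, 102 and 112 CPM in EV control 1, 2 and 3, and it was at 802, 383 and 162 CPM in p27OE 1, 2 and 3. EV control 1 lay above p27OE 2 and p27OE 3, so the groups overlapped. Means were 219 ± 195 and 449 ± 325 CPM (SD, n = 3 each), a log2 change of 1.03 ± 0.77 (SE; adjusted p by edgeR = 0.445). The p27OE library was 1.80-fold higher at the low Y-linked level and 1.51-fold higher at the high level. Fmod passed in the Y-adjusted model at 0.80 ± 0.06 (SE, 1.74-fold; edgeR adjusted p = 0.000437) and passed in all 6 fits with 1 library left out, between 0.74 and 0.83.

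Ogn encodes osteoglycin, also called mimecan, which takes part in collagen fibril assembly. It was at 262, 129 and 137 CPM in EV control 1, 2 and 3, and it was at 499, 296 and 193 CPM in p27OE 1, 2 and 3. The groups overlapped only through EV control 1, which lay above p27OE 3. Means were 176 ± 74.9 and 329 ± 156 CPM (SD, n = 3 each), a log2 change of 0.90 ± 0.42 (SE; adjusted p by edgeR = 0.231). The p27OE library was 1.90-fold higher at the low level and 1.46-fold higher at the high level. Ogn passed in the Y-adjusted model at 0.72 ± 0.08 (SE, 1.64-fold; edgeR adjusted p = 0.0015), and in all 6 fits with 1 library left out. Without both libraries numbered 1, Ogn and Prelp were the 2 members called, both higher, where 7.81% of all genes were called higher. Ogn was at 0.86 ± 0.21 (edgeR adjusted p = 0.0492). The Y-linked level was not balanced between the groups in that fit.

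Aspn and Omd are the neighbours of Ogn. Aspn encodes asporin, an SLRP with a run of aspartate residues near its start. It was at 280.1, 105 and 129 CPM in EV control 1, 2 and 3, and it was at 327, 207 and 143 CPM in p27OE 1, 2 and 3. The control library numbered 1 lay above p27OE 2 and p27OE 3. Its log2 change was 0.40 ± 0.45 (SE; adjusted p by edgeR = 0.623). Aspn passed narrowly in the Y-adjusted model, at 0.28 ± 0.09 (SE, 1.21-fold; edgeR adjusted p = 0.0478), and the call was lost whichever library was left out, with edgeR adjusted p from 0.0671 to 0.239.

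Omd encodes osteomodulin, a keratan sulfate proteoglycan best known from bone. It had the lowest mean CPM of the 9 in both groups, at 13.95, 10.35 and 9.94 CPM in EV control libraries 1 to 3 and 18.8, 13.9 and 9.13 CPM in p27OE 1, 2 and 3. The groups overlapped, with p27OE 3 the lowest library of all. Its log2 change was 0.29 ± 0.28 (SE; adjusted p by edgeR = 0.557), and 0.15 ± 0.12 after Y adjustment (edgeR adjusted p = 0.356). Omd did not pass in either model. In log2 CPM, p27OE 1 was 0.43 above EV control 1, and p27OE 3 differed by −0.15 from the mean of EV control 2 and 3.

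Dcn and Lum, which encode decorin and lumican, the proteoglycans that limit collagen fibril width in skin and cornea, differed more between libraries of a group than between the group means. Dcn was at 76.1, 11.2 and 8.27 CPM in EV control 1, 2 and 3, and it was at 92.7, 25.2 and 8.43 CPM in p27OE 1, 2 and 3. Lum was at 77.6, 10.2 and 8.71 CPM in EV control 1, 2 and 3, and it was at 85.4, 24.8 and 4.18 CPM in p27OE 1, 2 and 3. Both were high in the libraries numbered 1 of either group, and p27OE 3 lay within or below the controls.

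The log2 change was 0.41 ± 1.10 for Dcn and 0.25 ± 1.20 for Lum (SE; adjusted p by edgeR = 0.85 and 0.918). After Y adjustment Dcn was at 0.05 ± 0.17 and Lum at −0.30 ± 0.19 (SE; adjusted p by edgeR = 0.831 and 0.243). In that model without EV control 1, Lum passed as lower, at −0.82 (edgeR adjusted p = 0.000251), where 6257 of 14182 genes were called. In the 5 other fits with 1 library left out Lum did not pass. The ratio of Dcn to Lum counts was 0.95 to 1.10 in 5 libraries and 2.01 in p27OE 3, where the counts were 351 and 174.

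Bgn encodes biglycan, a proteoglycan with chondroitin or dermatan sulfate chains that also signals through Toll-like receptors when released from the matrix. It was at 4264, 4004 and 4095 CPM in EV control 1, 2 and 3, and it was at 3438, 3813 and 4090.5 CPM in p27OE 1, 2 and 3. Values of p27OE 3 lay inside the control range, and p27OE 1 and p27OE 2 lay below it. Means were 4121 ± 132 and 3781 ± 327 CPM (SD, n = 3 each; edgeR adjusted p = 0.482), and the Y-adjusted log2 change was −0.12 ± 0.07 (SE; adjusted p by edgeR = 0.204). In that model without p27OE 3, Bgn passed as lower, at −0.19 (edgeR adjusted p = 0.0329), where 4024 of 14260 genes were called. In every other fit of that model with 1 library left out Bgn did not pass. Its values there reached −0.019, with edgeR adjusted p of up to 0.703.

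Podn encodes podocan, a collagen-binding SLRP known from kidney podocytes and vessel walls. It was at 70.5, 13 and 14.9 CPM in EV control 1, 2 and 3, and it was at 31.0, 20.6 and 12.35 CPM in p27OE 1, 2 and 3. Podn in p27OE 1 was at 0.44 of EV control 1, the lowest such ratio of the 9 and below 1 also for Bgn (0.81), while p27OE 3 was at 0.89 of the mean of EV control 2 and 3. The log2 change was −0.62 ± 0.71 (SE; adjusted p by edgeR = 0.63), and 0.23 ± 0.26 without both libraries numbered 1. The Y-adjusted value was −0.56 ± 0.20 (SE; adjusted p by edgeR = 0.0669). It was −0.89 (edgeR adjusted p = 0.007) when p27OE 3 was also left out, where 4024 of 14260 genes were called. In every other fit of that model with 1 library left out Podn did not pass. Its values there reached −0.094, with edgeR adjusted p of up to 0.483.

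In all, the Y-adjusted model called 4 of 9 members, Prelp, Fmod, Ogn and Aspn, all higher, and 0 lower. In the same model 18% of all genes tested were called higher and 16% lower. The same 4 of 9 members had a difference above 0 at both levels, which 37.1% of all genes met. Those differences come from libraries and Y-linked levels that the Y-adjusted model also uses, and add no separate evidence. That model was chosen with earlier results of these libraries known, so its p-values describe these 6 libraries.

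**Figure D2:**
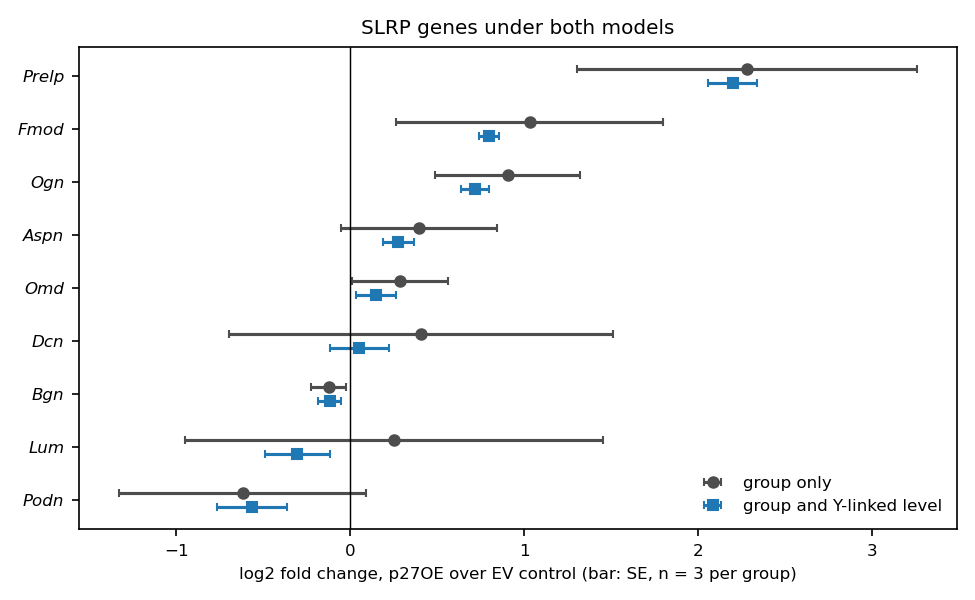
Log2 change of each SLRP gene, p27OE over EV control, with its standard error as a bar, from the model with the group only (grey circles) and the Y-adjusted model (blue squares). Prelp is at 2.28 and 2.2, with errors of 0.98 and 0.14.

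**Figure D3:**
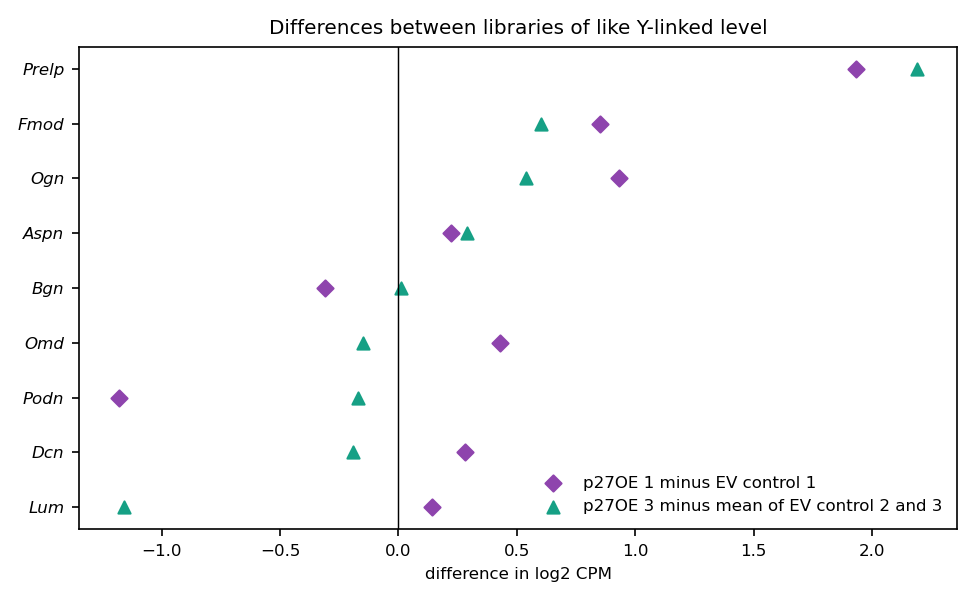
Difference in log2 CPM for each SLRP gene between p27OE 1 and EV control 1 (purple diamonds, low Y-linked level) and between p27OE 3 and the mean of EV control 2 and 3 (green triangles, high level). Prelp lies at 1.93 and 2.19, and Podn at −1.18 and −0.17.

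Ratios within a library, which no scaling of libraries affects, were formed for 6 pairs of SLRP genes picked after their values were seen. Prelp over Fmod counts was 0.23, 0.12 and 0.163 in the controls and 0.486, 0.483 and 0.422 in p27OE. Prelp over Podn was 1.45, 0.942 and 1.22 in the controls and 12.6, 8.99 and 5.53 in p27OE. In both pairs every p27OE library lay above every control library. This is a description only, and no p-value is read from it, since the pairs were picked with these values known. Ogn over Omd was 18.8, 12.5 and 13.7 in the controls and 26.6, 21.3 and 21.2 in p27OE, again without overlap. Prelp over Bgn was 0.024, 0.003 and 0.004 against 0.113, 0.049 and 0.017, with p27OE 3 under EV control 1.

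Levels of different genes were compared as CPM per kilobase of exon. Bgn led in every library, at 676 ± 21.6 in controls and 620 ± 53.7 in p27OE (SD, n = 3 each). In controls Aspn (72.8 ± 40.3), Ogn (68.6 ± 29.2) and Fmod (66.4 ± 59) followed with overlapping ranges. They were followed by Lum (13.1 ± 16.1), Prelp (12.2 ± 13.9), Podn (7.68 ± 7.65), Dcn (5.46 ± 6.57) and Omd (5.08 ± 0.98), again with overlapping ranges. In p27OE the order of means was Bgn, Fmod (136 ± 98.3), Ogn (128 ± 60.7), Aspn (95.7 ± 39.7), Prelp (59.3 ± 45), Lum (15.6 ± 17.3), Dcn (7.21 ± 7.64), Omd (6.19 ± 2.14) and Podn (4.99 ± 2.19). In either group, Bgn alone was separated from the next gene, and all other neighbours in the order overlapped in range.

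Of the summed CPM per kilobase of the 9 genes, Bgn made up 60.8%, 82.1% and 80.8% in the 3 controls and 42.9%, 61.3% and 75.8% in p27OE 1, 2 and 3. Prelp made up 2.46%, 0.424% and 0.603% in the controls and 8.2%, 5.01% and 2.14% in p27OE. The lowest p27OE share of Prelp was below the highest control share. With the length of the longest transcript in place of all exons, Bgn was at 1546 in controls and 1418 in p27OE, Fmod and Ogn changed places in the control order, and the other places were kept. The shares moved with that length, to 62.6% for Bgn in p27OE 1, and to 1.37%, 0.205% and 0.295% for Prelp in the controls and 5.23%, 2.79% and 1.08% in p27OE.

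**Figure D4:**
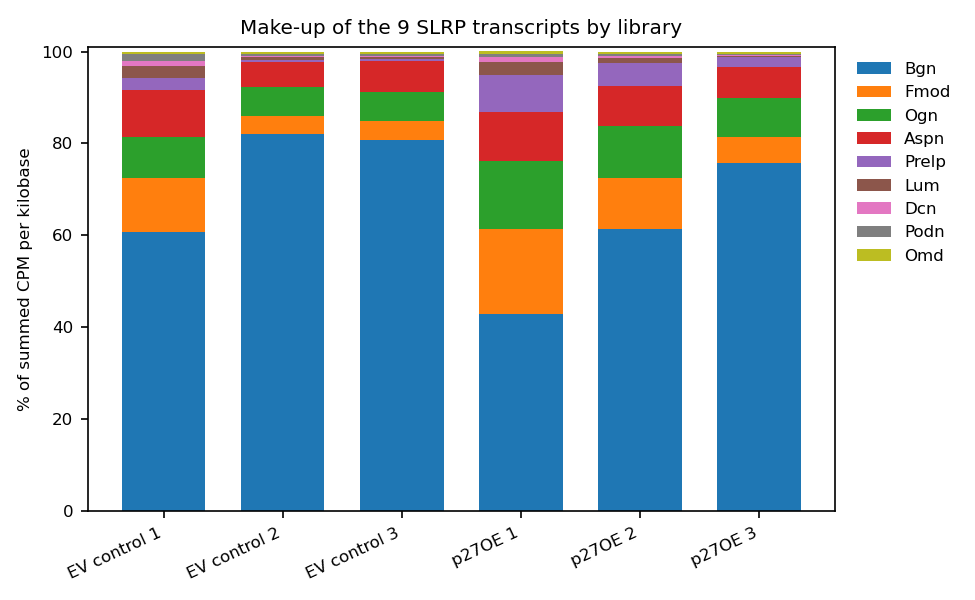
Share of each SLRP gene in the summed CPM per kilobase of exon of the 9 genes, as stacked bars. Bgn takes the largest share in every library, from 42.9% in p27OE 1 to 82.1% in EV control 2.

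Likeness of pattern was measured as the root mean square difference of log2 CPM centred on each gene's mean, over 6 libraries and the 10680 genes whose log2 CPM averaged 2 or more. Bgn was nearest to the RNA helicase gene Ddx19b (0.027) and to Bclaf1 (0.036), all of them nearly flat over the libraries. Among the members, Aspn and Ogn were nearest to each other (0.246), as were Dcn and Lum (0.369). Both pairs are from 1 chromosomal cluster each, while Fmod was nearest to Ogn (0.466) and not to its neighbour Prelp. Among all genes compared, nearer ones were found for Aspn (Sepp1, 0.083), Ogn (Fzd8, 0.065), Dcn (Clec11a, 0.257) and Lum (Lrrtm3, 0.241). Prelp was farthest from any other member, with Fmod the nearest (0.794).

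Other genes of the SLRP family were measured beside the members. Of 9, 6 were tested and 0 passed, where 2.61% of all genes did, with a median log2 change of −0.04. The Y-adjusted model called 1 of the 6 higher and 1 lower (all genes: 18% higher, 16% lower). Podnl1, a podocan-like gene, was at 11.4 ± 4.1 CPM in controls and 5.04 ± 1.76 CPM in p27OE (SD, n = 3), a log2 change of −1.17 ± 0.37 (SE; adjusted p by edgeR = 0.11). Podnl1 passed in the Y-adjusted model, at −1.01 ± 0.11 (edgeR adjusted p = 0.0013). Optc, which encodes opticin and lies 2304 bases from Prelp, was at 5.18, 9.46 and 9.9 CPM in EV control libraries 1 to 3 and 8.57, 12.9 and 19.5 CPM in p27OE 1, 2 and 3. Within each group it was lowest in the library numbered 1, where Prelp was highest. Prelp over Optc counts was 19.7, 1.29 and 1.83 in the controls and 45.4, 14.3 and 3.5 in p27OE, and the groups overlapped. Optc was at 0.74 ± 0.36 in the group model (SE; adjusted p by edgeR = 0.257) and passed as higher in the Y-adjusted model, at 0.87 ± 0.09 (edgeR adjusted p = 0.0012). Chad, a collagen-binding gene of cartilage, was under 0.5 CPM in every library, with a log2 change of −0.58 ± 0.59. Kera, keratocan of the cornea and next to Lum, had at most 10 counts in any library, and Epyc at most 32.

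The enzymes that build the sulfated chains were taken next. Of 21 tested genes for the linkage region and for chondroitin and dermatan sulfate, 1 rose and 0 fell, against 1.77% of all genes higher and 0.843% lower, with 16 above 0 and a median of 0.19. The gene that rose was Chpf, a chondroitin polymerizing factor, from 231 ± 7.47 to 314 ± 13.6 CPM (SD, n = 3 each), with a log2 change of 0.44 ± 0.07 (SE; adjusted p by edgeR = 0.0447). Chst7, a chondroitin sulfotransferase, was at 0.71 ± 0.15 (edgeR adjusted p = 0.0559) and Chpf2, a relative of Chpf, at 0.46 ± 0.14 (0.101). In the Y-adjusted model 9 of the 21 rose and 0 fell (all genes: 18% higher, 16% lower). Of 11 keratan sulfate and tyrosine sulfation genes 0 passed, with a median of −0.05, and the Y-adjusted model called 2 higher and 1 lower. The sulfotransferase gene Chst2 was at −0.45 ± 0.14, the sialyltransferase gene St3gal3 at 0.40 ± 0.18 and the fucosyltransferase gene Fut8 at −0.15 ± 0.08.

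Collagens, the main partners of SLRPs, and the enzymes that act on them were read against the 2.61% of all genes that passed, a share at which lists of this size may hold no called gene. Of 14 fibrillar and fibril-associated collagen genes 0 passed, 6 above 0 and 8 below, with a median of −0.07. Col5a3, a minor type V chain, was at 233 ± 97.1 and 92.2 ± 34.4 CPM (SD, n = 3), a log2 change of −1.34 ± 0.38 (SE; adjusted p by edgeR = 0.0933), and Col11a2 and Col2a1, cartilage chains, at 0.93 ± 0.33 and 0.49 ± 0.34. Y adjustment called 1 of the 14 collagen genes higher and 6 lower (all genes: 18% higher, 16% lower). Of 10 enzymes that process collagens and SLRPs 0 passed, with Pcolce, an enhancer of procollagen cleavage, at −0.38 ± 0.09 (edgeR adjusted p = 0.0683), Loxl1 at −0.16 ± 0.09 and Adamts14 at −0.29 ± 0.20. Of 9 proteases that cleave SLRPs 0 passed, with Mmp9 at −1.39 ± 0.40, Adamts4 at −0.27 ± 0.12 and Adamts1 at 0.49 ± 0.28. Against the same shares of all genes, Y adjustment called 0 of the 10 processing enzymes higher and 2 lower. Of the 9 proteases it called 1 higher and 2 lower.

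Next came 16 tested genes for ligands and receptors that SLRPs bind or signal through, with the intracellular signalling genes Myd88 and Nfkbia among them. Of these 16, 1 rose and 1 fell (all genes: 1.77% higher, 0.843% lower), with a median of 0.22. Tgfb2, a TGF-beta ligand, rose from 39.7 ± 4.11 to 58.2 ± 4 CPM (SD, n = 3 each), with a log2 change of 0.55 ± 0.10 (SE; adjusted p by edgeR = 0.0483). Met, the receptor of hepatocyte growth factor and a decorin target, fell from 30.02 ± 2.3 to 18.1 ± 2.16 CPM (SD, n = 3 each), with a log2 change of −0.73 ± 0.12 (SE; adjusted p by edgeR = 0.0412). Bmp2, a bone morphogenetic protein, was at 1.37 ± 0.34 (edgeR adjusted p = 0.0719) from a level of 0.65 CPM in controls. Y adjustment called 8 of the 16 higher and 3 lower (all genes: 18% higher, 16% lower).

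Of 20 tested core proteins of other proteoglycans 2 rose and 0 fell (all genes: 1.77% higher, 0.843% lower), with a median of 0.13. Sdc2, a syndecan of the cell surface, rose from 208 ± 14.2 to 298 ± 8.9 CPM (SD, n = 3 each), with a log2 change of 0.52 ± 0.08 (SE; adjusted p by edgeR = 0.0395). Cspg4, the NG2 proteoglycan of pericytes, rose from 153 ± 11.8 to 249.3 ± 34.3 CPM (log2 change 0.70 ± 0.12, SE; adjusted p by edgeR = 0.045). Hspg2, perlecan of basement membranes, was at 0.72 ± 0.19 (edgeR adjusted p = 0.0769). Y adjustment called 8 of the 20 higher and 5 lower (all genes: 18% higher, 16% lower). The calls of Chpf, Tgfb2, Met, Sdc2 and Cspg4 held without EV control 1 and were lost without any one of the other 5 libraries, with edgeR adjusted p of up to 0.221. In each of those 5 fits 1 or 2 genes of all those tested passed. The log2 changes moved little, from 0.401 to 0.461 for Chpf, 0.485 to 0.618 for Tgfb2, −0.805 to −0.636 for Met, 0.479 to 0.562 for Sdc2 and 0.581 to 0.755 for Cspg4.

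**Figure D5:**
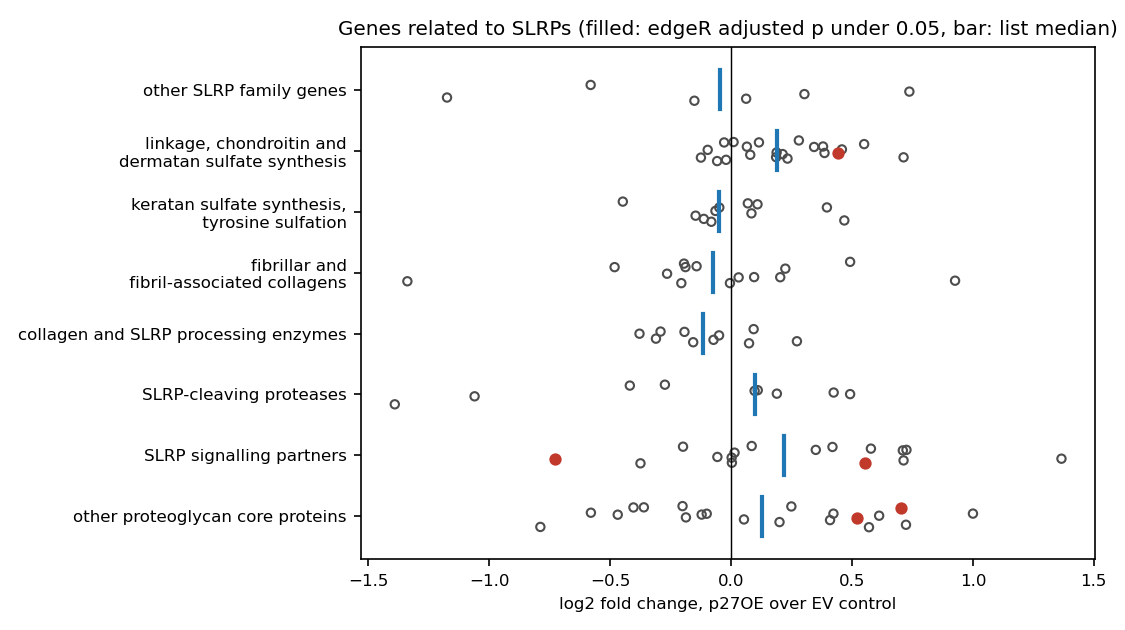
Log2 change, p27OE over EV control, of each tested gene in 8 lists related to SLRPs, with genes past an edgeR adjusted p of 0.05 as filled red points, others open, and the list median as a blue bar. The 5 filled points are Chpf, Tgfb2, Met, Sdc2 and Cspg4.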

How the data were processed

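Column-extracted RNA was made into libraries by a TruSeq kit, per the labels' protocols. The authors deposited raw read counts, whole numbers for each gene symbol. The submitters' processing notes name mm10 and these tools: featureCounts 1.4.6, Subread, TopHat2 2.0.14 and Bowtie2 2.2.6. The annotation and the strand setting are not given in the sources used here.

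All genes kept by filterByExpr were fitted by group alone with edgeR 4.0.16 under R 4.3.3 (TMM, robust glmQLFit, two-sided glmQLFTest), with Benjamini-Hochberg adjustment over all genes tested. Alternatives were DESeq2 1.42.0, limma 3.58.1 (voom), other scalings and filters, the replicate number as a block, libraries left out, and the Y-adjusted model. Its added term was the summed CPM of Uty, Kdm5d, Eif2s3y and Ddx3y relative to the library where that sum was largest. Fits were tested on simulated counts. Log2 CPM used a prior count of 2. The SE of an edgeR log2 change was derived as the absolute change over the square root of the glmQLFTest F statistic. Lengths and coordinates came from GENCODE M21, where 9 of 9 symbols matched. Members, lists, the Y-adjusted model and other alternatives were chosen with earlier results of these data known. The genes named are all 9 members, Cdkn1b, and from each related list the genes called plus those of smallest p up to 3; ratios and other names were chosen after seeing values. Chi-square per gene between libraries of a group was 6.51 to 188, so no library repeated another. The labels do not state separate cultures within a group, so the p-values cover the spread among these libraries alone. Y-linked levels differ within each group, so its libraries are not all of the same cell material; for EV control 2 and 3, which are alike in that level, the spread may be technical.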

Additional observations from a re-analysis of the deposited data

How the results depend on the processing

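The 365 genes called became 2321 with DESeq2, 4761 in the Y-adjusted model, 2334 without both libraries numbered 1, and 1 to 1827 with 1 library left out. The 0 SLRP genes called became 4, 2, and 0 to 1 in the last 3 of these, and stayed 0 with DESeq2, limma-voom, and each other scaling and filter. The 5 related genes called became 21 with DESeq2, 50 in the Y-adjusted model, 20 without both libraries numbered 1, and 0 to 15 with 1 library left out. In the Y-adjusted model with 1 library left out, chosen after seeing the data, the 4 SLRP genes became 3 to 5 and the 4761 genes 2137 to 6257, with 2372 without EV control 2 and 2971 without p27OE 2. The replicate number as a block called 2410 genes, 3 SLRP genes (Fmod, Ogn, Prelp) and 31 related genes. Deviations of same-numbered libraries correlated at 0.67, 0.04 and 0.5. Those of EV control 2 and p27OE 3 correlated at 0.56, and those of the other differently numbered pairs at −0.63 to 0. The pairing was not used, since the numbers are not said to pair samples and 1 of the 3 same-numbered values is under 0.1. The cause of these shifts was not tested. Of 575 gene values under alternatives other than the Y-adjusted fits with 1 library left out, 0 called values changed sign and 12 values without a call did, among them Lum (−0.30, Y-adjusted) and Podn (0.23 without both libraries numbered 1). In the Y-adjusted fit without EV control 1, Lum was called lower at −0.825, against 0.25 with the group alone. With 1 library left out, Dcn ran from −0.93 to 2.10, Lum from −1.155 to 2.003, Podn from −1.01 to 0.60 and Omd from −0.003 to 0.516. Upper-quartile scaling took the call of Tgfb2 (adjusted p = 0.0514, edgeR), total counts that of Met (0.0514) and no filter that of Chpf (0.0521).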
